A study of Mus musculus with 2 samples.

Results

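The stretch of mouse chromosome 17 from position 33500001 to 37700000 (build mm8) holds the major histocompatibility complex (MHC) and, at its distal end, a cluster of olfactory receptor genes. It was chosen by genomic position, although earlier results of these data were known by then. It covers 4.2 Mb, or 21000 of the 12850254 windows of 200 bp that span the reads of the series. In windows of 2 kb, used for most counts below, it takes 2100 of 1285045. Trimethylation of lysine 4 of histone H3 (H3K4me3) was profiled in a pair of mouse embryonic fibroblast (MEF) lines, Lsh+/+ (WT) and Lsh-/- (Lsh_KO), which were grown in the same medium and received no other treatment. Lsh, also named Hells, is a SNF2 family chromatin remodeller needed for normal DNA methylation. For each line, 20000000 cells were digested with micrococcal nuclease and 1 library was made. With 1 library per group no test of the genotype was possible. Every ratio below compares these 2 libraries, and an effect of Lsh cannot be told apart from any other difference between the lines or the precipitations.

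H3K4me3 sits on the nucleosomes next to active and poised transcription start sites, and is densest at CpG-rich promoters. The MHC holds the class I genes, which present peptides from inside the cell on nearly all cell types, and the genes that cut and transport these peptides. It also holds the class II genes, which present peptides on professional antigen-presenting cells. Between them lie many genes that most cells use, and the class III genes of complement and inflammation. Class I and peptide-processing genes are transcribed at a basal level in fibroblasts and are induced by interferon, whereas olfactory receptor genes are silent outside sensory neurons.

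The promoter of Hells held 84 reads in WT and 116 in Lsh_KO, which checks nothing about the deletion, since the mark at the start site can remain when part of a gene is removed. The fibroblast label was set against marker promoters. Of 11 fibroblast markers 7 had a promoter sequence and 5 were placed, from Col3a1 with 31 and 71 reads to Vim with 126 and 201. Col1a2, placed by 1 read position, held 48 and 14. Of 7 blood markers only 4 had a promoter sequence, and none was placed by the rule used here. Single read positions placed Cd3e (0 and 5 reads) and Cd79a (2 and 0). The epithelial marker Epcam, also placed by 1 position, held 13 and 16. So placed were the pluripotency markers Nanog (2 and 6) and Zfp42 (3 and 4) and the neural marker Neurod1 (9 and 2). Markers that were not placed allow no statement on their mark.

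The sequences below show the range of promoters behind the results, 250 bases before to 50 after each start, 5′ to 3′ on the gene's strand, from RefSeq on GRCm38.p6. In the first set every CpG is in capitals. Tap1, Psmb8 and H2-T-ps are the promoters called lower in Lsh_KO, Gm4577 is the one called higher, and Slc39a7 had the most WT reads of the promoters placed by at least 2 read positions of their own. Their GRCm38.p6 positions are chr17:34187306-34187605 (plus strand) for Tap1, chr17:34197945-34198244 (plus) for Psmb8, chr17:36111627-36111926 (minus) for H2-T-ps, chr17:35703827-35704126 (plus) for Gm4577 and chr17:34031641-34031940 (minus) for Slc39a7.
Tap1: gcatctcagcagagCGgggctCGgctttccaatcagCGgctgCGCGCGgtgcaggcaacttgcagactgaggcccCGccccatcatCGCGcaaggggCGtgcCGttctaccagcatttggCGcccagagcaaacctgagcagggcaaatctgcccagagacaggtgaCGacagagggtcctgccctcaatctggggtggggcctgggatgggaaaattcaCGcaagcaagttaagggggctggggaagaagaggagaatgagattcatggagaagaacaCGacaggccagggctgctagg
Psmb8: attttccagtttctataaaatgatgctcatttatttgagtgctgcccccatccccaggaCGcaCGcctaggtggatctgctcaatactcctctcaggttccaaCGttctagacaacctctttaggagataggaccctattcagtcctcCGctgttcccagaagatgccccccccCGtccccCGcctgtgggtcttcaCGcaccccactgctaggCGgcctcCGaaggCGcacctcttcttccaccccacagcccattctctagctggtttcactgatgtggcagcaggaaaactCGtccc
H2-T-ps: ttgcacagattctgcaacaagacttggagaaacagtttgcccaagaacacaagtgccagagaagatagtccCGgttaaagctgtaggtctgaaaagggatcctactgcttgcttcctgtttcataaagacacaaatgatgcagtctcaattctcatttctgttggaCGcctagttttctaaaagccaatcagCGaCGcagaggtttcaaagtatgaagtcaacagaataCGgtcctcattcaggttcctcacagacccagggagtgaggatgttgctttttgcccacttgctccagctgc
Gm4577: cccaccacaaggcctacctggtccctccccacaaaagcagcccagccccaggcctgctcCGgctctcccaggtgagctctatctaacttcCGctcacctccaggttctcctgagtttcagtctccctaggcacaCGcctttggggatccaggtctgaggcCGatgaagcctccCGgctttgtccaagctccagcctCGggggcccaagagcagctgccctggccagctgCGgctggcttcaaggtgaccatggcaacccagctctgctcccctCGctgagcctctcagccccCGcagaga
Slc39a7: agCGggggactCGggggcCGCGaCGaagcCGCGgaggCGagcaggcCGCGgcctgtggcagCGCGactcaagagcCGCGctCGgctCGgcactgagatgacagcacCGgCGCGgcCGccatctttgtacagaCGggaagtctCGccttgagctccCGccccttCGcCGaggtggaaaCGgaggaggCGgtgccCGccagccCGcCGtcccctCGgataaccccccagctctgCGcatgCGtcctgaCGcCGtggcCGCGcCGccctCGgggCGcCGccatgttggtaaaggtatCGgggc
The Slc39a7 promoter held 42 CpGs, against 15 for Tap1, 11 for Psmb8, 9 for Gm4577 and 5 for H2-T-ps. All other coordinates in the text are those of mm8.

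The second set shows the promoters of the 2 classical class I genes of the stretch that reads placed, H2-K1 (GRCm38.p6 chr17:34000298-34000597, minus strand) and H2-D1 (chr17:35262844-35263143, plus). Capitals mark runs of at least 20 bases that both hold unchanged.
H2-K1: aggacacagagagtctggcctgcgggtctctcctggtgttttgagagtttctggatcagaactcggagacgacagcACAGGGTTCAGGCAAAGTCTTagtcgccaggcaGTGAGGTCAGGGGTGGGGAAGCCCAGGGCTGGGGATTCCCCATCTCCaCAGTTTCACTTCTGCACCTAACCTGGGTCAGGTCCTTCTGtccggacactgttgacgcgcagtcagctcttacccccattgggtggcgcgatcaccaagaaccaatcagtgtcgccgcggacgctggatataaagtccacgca
H2-D1: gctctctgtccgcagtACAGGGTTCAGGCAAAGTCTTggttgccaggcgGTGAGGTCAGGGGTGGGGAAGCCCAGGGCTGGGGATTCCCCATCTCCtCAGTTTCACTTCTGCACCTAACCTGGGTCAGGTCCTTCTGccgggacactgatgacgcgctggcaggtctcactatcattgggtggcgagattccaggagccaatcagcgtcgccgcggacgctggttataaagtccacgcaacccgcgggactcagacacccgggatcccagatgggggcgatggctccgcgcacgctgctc
The 3 shared runs sum to 108 bases, 36% of each sequence, and the longest has 47. All 3 lie upstream of both annotated starts, in the part of classical class I promoters that is known for its kappaB and interferon-response elements. Each also held 2 CCAAT boxes (the letters CCAAT on either strand), which were found in 37.4% of all promoter sequences.

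The stretch was densely marked in both lines. WT had 10982 distinct reads there and Lsh_KO 11663, which were 0.444% (95% Clopper-Pearson interval 0.436 to 0.453) and 0.418% (0.410 to 0.426) of each library. A 2 kb window counted as marked from 10 reads upward if it also held 5 times the background or more. By that rule 157 windows were marked in WT and 153 in Lsh_KO, 132 of them in both. They were 7.48% and 7.29% of the stretch's windows, against 2.64% and 2.52% on the rest of chromosome 17. Marked windows took 63.5% of the stretch's WT reads and 74.97% of its Lsh_KO reads.

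The mark was concentrated in the proximal part. Of 14 bins of 300 kb, the first 8, up to 35900000, held 159 of the 178 windows marked in either line. The last 6 held 19, and the last 3, which contain olfactory receptor genes, held 4. In the plot of reads along the stretch the tall windows end there, apart from a group around Rnf39, Ppp1r11, Znrd1 and Zfp57, whose starts lie from 36551104 to 36610578. H2-M3, a class I gene that presents formylated peptides, stood farther out with 29 and 46 reads.

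**Figure D1:**
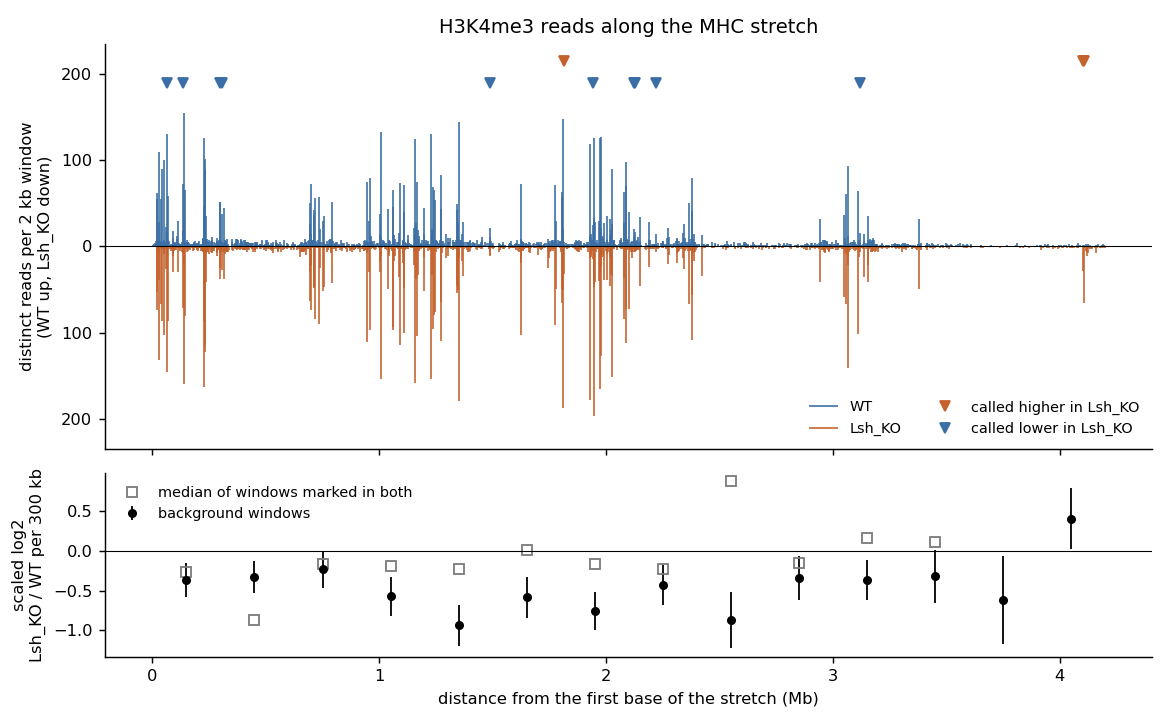
Distinct reads per 2 kb window along the stretch (top; WT upward, Lsh_KO downward, unscaled counts, distance from the first base in Mb) with triangles at the 13 called windows. Below, the scaled log2 ratio of Lsh_KO to WT per 300 kb bin for background windows (points, 95% intervals for counting error) and for windows marked in both lines (squares, median); the background lies below 0 in 13 of 14 bins.

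Ratios were scaled so that the median over all windows of the genome marked in both lines was 1. This scale lies 0.33 (log2) above that of total reads, so values relative to total reads are higher by that amount. On the median scale the 132 windows of the stretch marked in both had a median log2 ratio of -0.21 (quartiles -0.44 and 0.00), and 98 of them were below 0. The rest of chromosome 17 had a median of -0.13. Scaled by total reads, the median of the stretch was 0.12, so its sign rests on the scale.

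Background reads were fewer in Lsh_KO along most of the stretch. Windows with fewer than 10 reads in both lines held 4011 WT and 2919 Lsh_KO reads. Scaled to the background of all chromosomes, their log2 ratio was -0.46 (95% interval -0.53 to -0.39), against -0.17 on the rest of chromosome 17. The ratio was below 0 in 13 of the 14 bins and lowest, at -0.94, in the bin from 34700001, which holds H2-D1, H2-Q2 and H2-Q4. The last bin, which holds the gained locus described below, was the exception at 0.41. Adding the background ratio of each bin to the scale turned the median of the marked windows to 0.32. The part of copy number or of local background in the lower ratios was not tested.

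Transcription start sites were put on mm8 by matching reads to the promoter sequences. Between BC051226 and Olfr128, the outermost genes placed, the RefSeq table lists 322 genes, of which 195 had a promoter sequence. At least 2 distinct read positions placed 82 genes, and 65 of these had at least 20 reads within 1 kb of the start. Overlapping promoters placed 7 more through shared reads and single positions 40 more, while 66 genes with a sequence were not placed. The 65 passed because they had reads in at least 1 line, and are the marked part of the stretch rather than all its promoters. Their median observed over expected CpG was 0.83, against 0.17 for the promoters not placed.

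A promoter or window was called when the scaled ratio was at least 2-fold, the exact 95% interval lay on 1 side of 1, and the reads of both lines summed to 20 or more. Among the 65 promoters 1 was called higher, where 1.97% of all placed promoters of the genome were, and 3 were called lower, where 3.28% were. Their median log2 ratio was -0.16, against 0.04 over all 8712 placed promoters with enough reads. Scaled by total reads, 1 remained higher and none was lower, and the median was 0.17. Of the 65, 45 had CpG-rich promoters (GC over 50% and observed over expected CpG over 0.6), none of which was called lower, and the 3 called lower were among the other 20. Over all placed promoters 2.42% of the CpG-rich and 6.10% of the others were called lower. The median log2 ratios of the 45 and the 20 were -0.14 and -0.18.

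Around the 65 starts the mark had its usual shape in both lines. Reads peaked 100 to 200 bp downstream of the start, with means of 6.32 per promoter in WT and 7.97 in Lsh_KO. They dipped to 1.98 and 2.26 in the 100 bp just upstream, where the nucleosome-depleted region of active promoters lies.

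**Figure D2:**
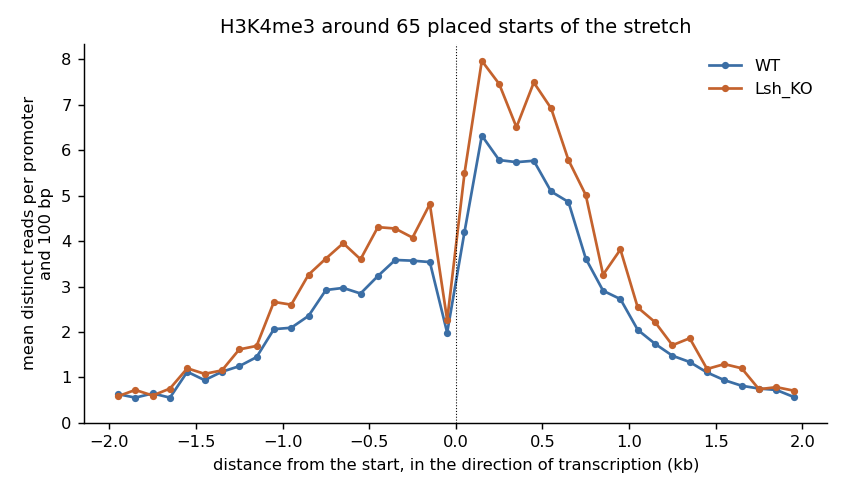
Mean distinct reads per promoter in 100 bp steps around 65 placed starts of the stretch, by distance in the direction of transcription (kb), unscaled. Both lines peak 100 to 200 bp downstream, at 6.32 (WT) and 7.97 (Lsh_KO), and dip just upstream of the start.

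The genes that prepare peptides for class I molecules held 2 of the 3 promoters called lower. Tap1, a subunit of the peptide transporter of the endoplasmic reticulum, had 95 reads in WT and 59 in Lsh_KO within 1 kb of its start at chr17:33797844, 2.29-fold lower on the median scale (95% interval 1.64 to 3.22). Psmb8, a subunit of the interferon-induced proteasome at 33808407, had 43 and 28, 2.18-fold lower (1.33 to 3.65). Both lines carried the mark at both genes. Relative to total reads the log2 ratios were -0.86 and -0.79, so neither passes 2-fold on that scale.

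Psmb9, another subunit of that proteasome, starts next to Tap1 in the opposite direction and shares its reads. It had 85 and 60 reads and is not independent of Tap1. Tapbp, which links the transporter to class I molecules, had 94 and 119 reads and a log2 ratio of -0.17 (-0.57 to 0.24). Tap2 was not placed. Of 5 genes listed for antigen processing, 3 had enough reads by the rule, 2 were called lower, where 3.28% of all placed promoters were, and the median log2 ratio was -1.13, against -0.16 for all 65. The 2 are neighbours, and the called windows beside them were joined into 1 locus, 33798001 to 33810000.

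Further reads, the deposited window counts less the distinct listed reads, gave another count from the same libraries. Repeats of listed reads were not taken out of them, so they may not be independent of the listed ones. At Tap1 they numbered 70 in WT and 55 in Lsh_KO, 1.82-fold lower, and at Psmb8 28 and 23. Their direction was the same and their size below 2-fold. In the window just downstream of the Tap1 start, 33798001 to 33800000, listed reads numbered 51 and 25, 2.90-fold lower (1.76 to 4.88), and further reads 41 and 15, 3.91-fold lower. Counted within 500 bp of the start, Tap1 had a log2 ratio of -0.88, and with repeated reads kept it had -0.90. It was not called in either case, while Psmb8 was called in both.

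Class I heavy chains, the chains that hold the peptide, differed among themselves in the level of the mark. Of 20 genes listed, 16 had a promoter sequence, 5 were placed and 6 more were placed by single positions or shared reads. H2-K1, H2-D1, H2-Q4, H2-T22 and H2-M3 had at least 20 reads, and the other 6 had 2 to 12 reads in WT and 2 or 3 in Lsh_KO. H2-K1, at 33610801, had 33 reads in WT and 30 in Lsh_KO, with a log2 ratio of -0.64 (-1.41 to 0.11), by reads it shares with an overlapping promoter sequence. H2-D1, at 34871147, had 28 and 33, a log2 ratio of -0.27 (-1.04 to 0.51). Both intervals include 0.

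Among the non-classical class I genes H2-Q4 had 29 and 21 reads, a log2 ratio of -0.97 (-1.86 to -0.11). H2-Q2 had 11 and 3, H2-Q10 had 9 and 3, and H2-T23, which supplies a ligand for natural killer cell receptors, had 12 and 3 by 1 read position. These 3 had too few reads for a call, although their log2 ratios of -2.38, -2.09 and -2.51 had intervals below 0. H2-T22, placed by shared reads and with 36 and 47 reads, and H2-M3, with 29 and 46, had log2 ratios of -0.12 and 0.16. Class I promoters resemble each other: 43.5% of the 25-base words of H2-Q6 and of H2-Q7, each placed by 1 position, also occur in another promoter. The same holds for 31.9% of those of H2-T23 and 16.3% of those of H2-K1, so levels at these genes are uncertain. The count of 3 class I genes with enough reads included no call, and their median log2 ratio was -0.27.

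**Figure D3:**
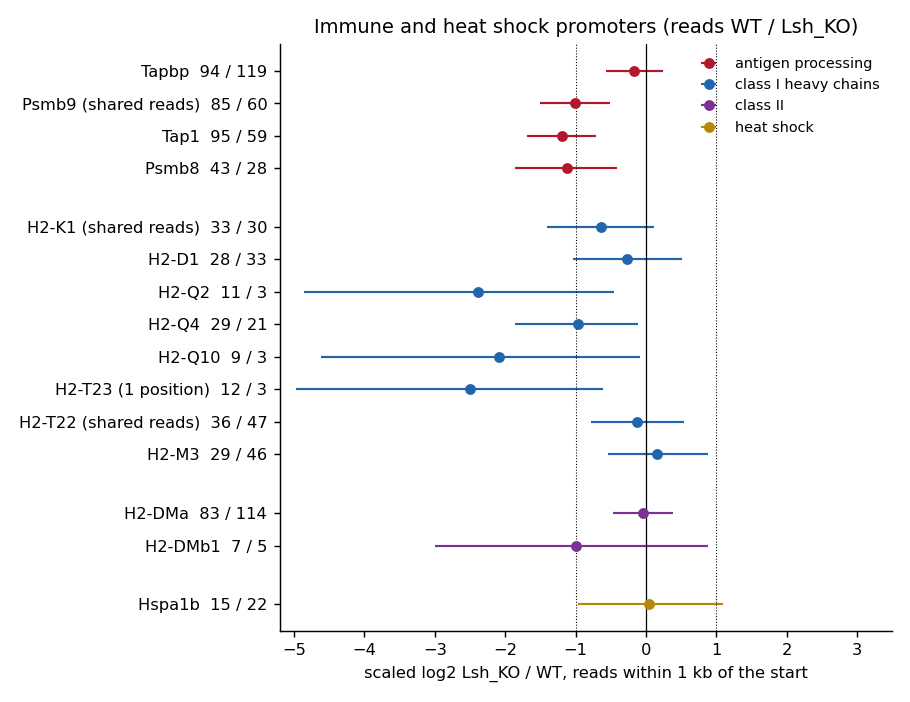
Scaled log2 ratio of Lsh_KO to WT within 1 kb of the start for the 15 placed antigen-processing, class I, class II and heat shock promoters with at least 10 reads together and reads in both lines; bars are 95% intervals for counting error, dotted lines mark 2-fold, and labels give reads as WT / Lsh_KO. Of the 15, 13 lie below 0 on this scale and 2 above, and relative to total reads 9 lie below and 6 above; 46 of all 65 promoters with enough reads lie below 0 on the scale plotted. The 6 that lie past 2-fold lower with intervals that exclude 0 are Tap1, Psmb8, Psmb9 and, with fewer than 20 reads each, H2-Q2, H2-Q10 and H2-T23.

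The pseudogene H2-T-ps was the third promoter called lower, with 15 and 8 reads and a log2 ratio of -1.41 (-2.86 to -0.08). Its promoter shares 31.9% of its words with others. The nearby windows at 35622001 and 35628001, between the starts of Gnl1 and H2-T23, had 20 and 7 and then 17 and 5 reads. Joined, they were 4.38-fold lower (2.23 to 9.23), the lowest ratio among the loci called lower. A further region called lower, 35691201 to 35692200, had 68 and 49 deposited reads. H2-T22, which lies between these intervals and was placed by shared reads, did not pass the limits for a call.

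Of 11 class II genes listed 4 were placed, and 3 of these had few reads. H2-Oa had 5 and 3 reads, H2-DMb1 7 and 5, and H2-Eb2 4 and 2. H2-DMa, which helps to load class II molecules, was the exception with 83 and 114 reads, and lies in the same marked region as Brd2. That region, from 33726801 to 33734800, had the most reads of any in the stretch, with 729 in WT and 1003 in Lsh_KO in the deposited windows. H2-Aa, H2-Ab1 and H2-Eb1, the main class II chains, were not placed, and no statement on their mark follows from that.

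Of the class III immune genes, C2, Cfb, C4a and C4b had no promoter sequence here. Ltb, of the TNF family, was placed by 1 position with 2 and 1 reads, and Ly6g6d had 5 and 3. Among heat shock genes Hspa1b, the inducible HSP70, had 15 and 22 reads and a log2 ratio of 0.05 (-0.97 to 1.10), and Hspa1l had 5 and 3. Of the genes named here only Hspa1b had enough reads for a call, and it was not called.

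The broadly active genes included the placed promoters with most reads, and none placed by the rule was called. Of 66 listed, 42 were placed and 41 had enough reads, none called where 1.97% (higher) and 3.28% (lower) of all placed promoters were; their log2 ratios ran from -0.74 (Zbtb12, 33 and 28 reads) to 0.29, with a median of -0.16, the value of all 65. Slc39a7, a zinc transporter that shares a promoter with the nuclear receptor gene Rxrb, had 165 and 193 reads. Vps52, a subunit of a vesicle tethering complex, had 159 and 194. Csnk2b, the regulatory subunit of casein kinase 2, had 147 and 176, and Ehmt2, a histone H3 lysine methyltransferase, 136 and 157. At the upper end Ppp1r10, which targets protein phosphatase 1 to the nucleus, had 80 and 139. None of the 41 ratios reached 2-fold in either direction. H2-Ke6, on the same list but placed by 1 position, passed the limits for a lower call with 35 and 23 reads, 2.16-fold lower (1.24 to 3.83). Its further reads numbered 27 and 33, 1.17-fold lower. Atp6v1g2 had 55 and 60 listed reads, 1.30-fold lower and not called, and passed those limits in further reads, 48 and 31, 2.22-fold lower.

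**Figure D4:**
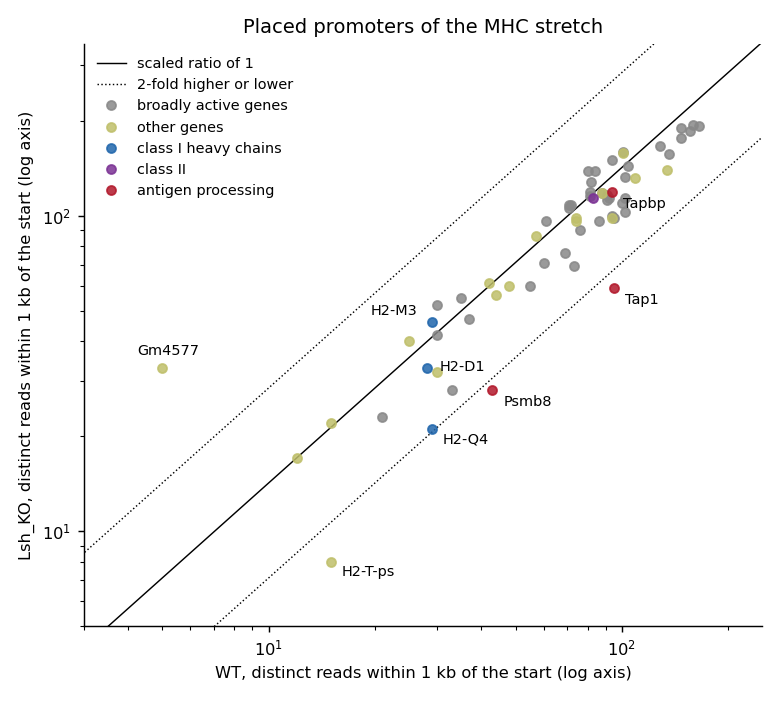
Distinct reads within 1 kb of the start in WT (x) and Lsh_KO (y), both on log axes and unscaled, for the 65 placed promoters with at least 20 reads together; the solid line is the scaled ratio of 1 and the dotted lines are 2-fold. Gm4577 lies above the upper line, and Tap1, Psmb8 and H2-T-ps below the lower one.

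The promoter called higher was that of Gm4577, a predicted gene, with 5 reads in WT and 33 in Lsh_KO, 4.64-fold higher (1.80 to 15.2). Its start, 35312130, lies near an upstream start of Ddr1, a collagen receptor gene. The main Ddr1 start, at 35308643, had 147 and 189 reads and a log2 ratio of -0.14. Both starts lie inside 1 marked region, 35304401 to 35313400, the widest of the stretch. Further reads at Gm4577 numbered 7 and 28, 2.79-fold higher (1.19 to 7.58).

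Among 150 windows of the stretch with enough reads, 3 were called higher (2.00%, against 3.45% of windows of the genome) and 10 lower (6.67%, against 5.8%). The shares are near those of the genome. Scaled by total reads, 8 were higher and 4 lower, and with the bin background added, 10 and 5. The 10 lower windows had 15 to 51 WT reads and 5 to 27 Lsh_KO reads. Of the 13 called windows 8 had at least 20 further reads, and 7 of these had the same direction. Among the 7, the window from 35442001 was near no change, with 9 and 12 further reads, a ratio of 0.93 (0.36 to 2.50). In the further reads 2 of 5 lower and 2 of 3 higher windows reached 2-fold. The exception in direction was the window of H2-Q4, 34986001 to 34988000, with 21 and 11 listed but 5 and 15 further reads.

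Windows marked in 1 line and below 2 times background in the other were called gained or lost. Gained windows numbered 5 of 153 (against 3.99% of the genome) and lost windows 5 of 157 (against 3.09%). The lost ones had 10 to 12 WT and 2 Lsh_KO reads each; 1 of them, with 11 and 2, held the start of H2-Q2, and another, with 12 and 2, ended 0.8 kb from H2-K1. Of the gained windows, that from 36560001 had 1 and 10 reads and lay 0.2 kb from the start of Ppp1r11, a phosphatase inhibitor gene, and that from 34150001 had 2 and 12. The other 3 lay within 20 kb of each other near the distal end.

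The gained locus at the distal end stood out in the deposited windows and in the listed reads, which are not separate counts, since the windows include the listed reads. The core from 37603401 to 37604800, 1400 bp, had 2 reads in WT and 161 in Lsh_KO in the deposited windows, and 2 and 92 distinct listed reads. As a region the core was 54.7-fold higher (14.9 to 455), within bounds that were drawn from Lsh_KO only. The tallest 200 bp window, 37604001 to 37604200, had 0 and 75. The 2 kb window from 37604001 had 0 and 66 distinct reads. The exact 95% lower limit of its ratio was 12.2-fold, and with a floor of 3 reads in place of 0 the ratio was 15.5-fold. Called windows joined into a locus from 37602001 to 37606000. The placed starts nearest to it were those of Olfr128, 70.4 kb away, and Olfr132, 133.2 kb away, each placed by 1 read, so no gene is named for it.

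The locus is shown as the 2 longest runs of overlapping Lsh_KO reads without a mismatch, with CpGs in capitals. Run 1 is chr17:37603915-37604070 and run 2 chr17:37604162-37604316, both mm8, plus strand.
run 1: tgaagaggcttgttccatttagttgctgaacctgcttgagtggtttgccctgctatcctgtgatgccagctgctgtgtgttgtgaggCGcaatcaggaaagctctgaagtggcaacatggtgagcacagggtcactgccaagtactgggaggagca
run 2: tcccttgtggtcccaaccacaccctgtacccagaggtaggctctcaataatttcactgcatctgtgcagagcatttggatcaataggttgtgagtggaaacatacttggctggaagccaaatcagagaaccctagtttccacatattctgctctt
Run 1 held 1 CpG in 156 bases and run 2 held none in 155. The reads of the locus had an observed over expected CpG of 0.14, against 0.46 to 0.75 for the reads of the 10 windows of the stretch with most reads. Those 10 are a strongly marked set. Among the other windows called, gained or lost, the value ran from 0.11 (from 36674001) to 0.82 (from 35718001). A low value was therefore not particular to this locus. The 95 distinct Lsh_KO reads from 37602001 to 37606000 lay on both strands, 62 forward and 33 reverse. Of the distinct reads of both lines there, 11.3% had a mismatch, against 12.7% of Lsh_KO reads in the stretch. The 2 windows of the locus differed, with 22.6% in that from 37602001 and 6.06% in that from 37604001.

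**Figure D5:**
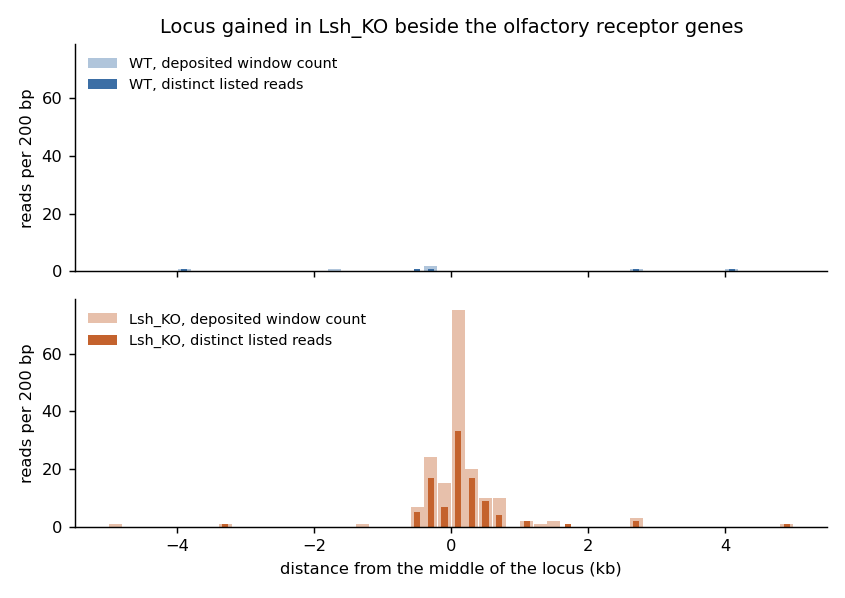
Reads per 200 bp window by distance from the middle of the gained locus (kb), WT above and Lsh_KO below on the same scale; pale bars are deposited window counts and dark bars distinct listed reads. Lsh_KO reaches 75 in the tallest window, where WT has 0.

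At the olfactory receptor starts that reads placed there was almost no mark in either line. The RefSeq table lists 35 such genes, of which 28 had a promoter sequence, 2 were placed (Olfr97 with 2 and 0 reads, Olfr99 with 4 and 2) and 7 more were placed by 1 position. Olfr95 had the most among those 7, with 4 and 6. None of those placed had enough reads for a call, and no statement on the mark at the other starts follows. The gained locus lay 70.4 kb or more from every olfactory receptor start that was placed.

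Regions were also drawn from the deposited windows of the stretch. Windows of 200 bp with 6 reads or more were joined when no more than 1 kb apart, and regions under 20 reads were dropped. This gave 74 regions in WT and 82 in Lsh_KO, covering 129.6 kb and 145 kb, with a median width of 1400 bp in both. All 74 WT regions were overlapped by an Lsh_KO region, where 95.3% of WT regions of the genome were. The other way it was 74 of 82, 90.2% (81.7 to 95.7), against 91.0% over the genome. Of the 82 joined regions 3 were called higher (3.66% over the genome) and 2 lower (5.5%). Scaled by total window reads, 3 were higher and none lower.

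The regions called higher were the gained locus, 34151801 to 34152200 with 1 and 21 reads, and 35244001 to 35244400 with 14 and 43, between the starts of Gm9573 and Mucl3. Each of these was drawn in Lsh_KO only. The region of the shared Tap1 and Psmb9 promoter, 33797001 to 33799000, was called lower with 170 and 113 reads, 2.22-fold. It was drawn in both lines.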

How the data were processed

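H3K4me3 chromatin was sequenced in 1 WT and 1 Lsh_KO library. The deposited read lists give each 25-base read's position, strand, match code and alignment score. The authors' alignment score (4 to 53) was used only to choose among reads at the same position. The deposited window lists give counts of reads per 200 bp window. The build was mm8, per the submitters' processing notes; the aligner and the counting rule are not given in the sources used here. The window counts hold 1598335 (WT) and 1759904 (Lsh_KO) reads beyond the listed distinct ones, called further reads here. Their origin is not given, and they can include repeats of listed reads.

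One read was kept per position and strand, leaving 2471782 WT and 2790389 Lsh_KO reads (13.9% and 18.6% were repeats; 25.4% and 31.9% in the stretch), and moved 75 bp in reading direction. Reads were counted in 2 kb windows, the background being windows with fewer than 10 reads in both lines. Ratios are Lsh_KO over WT divided by 1.42, the median over windows marked in both, with exact conditional (Clopper-Pearson) 95% intervals. Regions and further reads were scaled by their own medians, 1.47 and 1.43. Intervals and floors cover counting error only, because with 1 library per group no spread between libraries enters them. In addition, copies made by PCR could not be told apart from separate molecules. Starts were placed where reads matching exactly 1 of 32851 RefSeq promoter sequences (GRCm38.p6) gave the same start within 5 bp from at least 2 positions; for a gene with several, the start with most reads was used. Genes shown after shared-read or 1-position placement are named as such.

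All windows called, up to 5 gained and 5 lost, the regions with most reads, and per list the called promoters and those with most reads were to be named; other genes were chosen after their values were seen. The stretch, gene lists and rules were chosen with earlier results of these data known. The calling and placing rules were tested on simulated data. Scripts ran in Python 3.11.15 (scipy 1.17.1, numpy 2.4.6, pandas 2.3.3; plots with matplotlib 3.10.9). Alternatives tried were window size, read shift, repeats, mismatches, deposited windows, scaling, minimum reads, region rules and promoter width and placement.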

Additional observations from a re-analysis of the deposited data

How the results depend on the processing

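No paired analysis was possible because each group had 1 library and no replicate number, and for the same reason no library could be left out. The background ratio kept its direction under every alternative run, from -0.47 to -0.41. The median log2 ratio of marked windows was 0.12 scaled by total reads, 0.32 with the bin background added and -0.095 in deposited windows. That of the promoters was 0.17 and 0.36 under those 2 scalings. Windows called higher and lower numbered 8 and 4 scaled by total reads, 10 and 5 with the bin background, 5 and 27 in deposited windows, and 5 and 23 with no minimum; with all reads kept 5 were higher. Of the 10 lower windows 4 were kept under total scaling and 5 with the bin background, while all 3 higher ones were kept under both. Deposited windows gave 260 marked in WT. The share of reads was 0.513% (WT) and 0.499% (Lsh_KO) with all reads kept, and 0.474% and 0.460% in deposited windows. Lower promoters numbered 0 under either scaling, 1 within 500 bp (Psmb8), 1 from further reads (Atp6v1g2) and 2 with all reads kept; they numbered 4 where 1 position was enough (H2-Ke6 added) and 4 where shared reads placed a start (Psmb9 added). Gm4577 was called higher in all 7 alternatives. Lower regions numbered 0 scaled by total window reads. At least 3 reads per mismatch site left 0 sites for either line. The scaling of promoters by bin, their count from shared or further reads and the total scaling of regions were chosen after seeing the data. The cause of these changes was not tested. Promoters with fewer than 20 reads, such as most class I and class II genes placed and all olfactory receptor genes placed, allowed no call.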

Other observations

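The stretch was searched for sites where at least 2 distinct reads of 1 line carried the same mismatch to the reference and fewer than 2 of the other did. WT had 3 such sites and Lsh_KO 4, or 27.3 and 34.3 per 100000 distinct reads, below the 45.9 and 77.3 over the whole series. No site was shared by both lines among the 22645 distinct reads of the stretch. The series had 325 among 5262171, or 6.18 per 100000. At that rate 22645 reads are too few to tell 0 sites from the share of the series. The reference base in the match code equalled the base of perfectly matching reads at all 1902 positions compared.

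Repeated reads were more common in the stretch than in the libraries as a whole, 25.4% against 13.9% in WT and 31.9% against 18.6% in Lsh_KO. The share of reads with a mismatch was 13.4% and 12.7% in the stretch. The GC box GGGCGG, which is common in CpG-rich promoters, was found in 41 of the 65 promoters with enough reads, 63.1%, against 35.7% of all promoter sequences.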
